A study of Homo sapiens with 30 samples.

Results

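The 48 genes described here encode core proteins of the spliceosomal snRNPs and the factors that assemble those particles. They were chosen by symbol from a table of nascent transcription in A549, a line of human lung adenocarcinoma cells. The table lists 58780 genes, and 22919 of them, including all 48 of the 48, had enough reads to be tested. By role, 7 genes encode the Sm ring, 3 encode U1 snRNP proteins, 11 encode U2 snRNP proteins and 2 encode the U2AF heterodimer. A further 7 encode the LSM ring, 9 belong to the U4/U6.U5 tri-snRNP, 3 to the minor spliceosome, 1 to the Prp19 complex and 5 to the SMN complex and the Cajal body. Of their rows, 47 carried exactly the symbol sought. The row for U2AF1 carried 2 joined symbols and its near-identical copy U2AF1L5 had a row of its own, so the split of reads between them is uncertain.

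Transcription was measured by PRO-seq, which labels the RNA that engaged polymerases extend during a short run-on and so counts transcription in progress and not mature mRNA. All 15 groups had 2 libraries each and all cells received 0.01% DMSO, the carrier. Cells were untreated, or were given 100 nM dexamethasone (Dex), a glucocorticoid, for 15 min or 3 h, or 1 µM GSK591 or 1 µM MS023 for 2, 4 or 7 days. GSK591 inhibits the arginine methyltransferase PRMT5 and MS023 inhibits the Type I arginine methyltransferases. In 2 further groups an inhibitor was given together with Dex for 3 h, and in the remaining 4 groups 7 days of inhibitor were followed by 15 min or 3 h of Dex. The same untreated pair, labelled with a time of 15 min, was the control at every time, so comparisons with untreated cells are not independent of each other. The labels do not say that the libraries of a group came from separate cultures, so the p-values measure the spread between these libraries.

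Each major spliceosomal snRNP is built on a small RNA that carries a heteromeric ring of Sm proteins, or of LSM proteins in the case of U6, together with proteins specific to that particle. U1 recognises the 5′ splice site, U2 and U2AF act at the branch point and the 3′ splice site, and the tri-snRNP brings in U4, U5 and U6 before catalysis. PRMT5 symmetrically dimethylates the arginine-rich tails of the Sm proteins SNRPB, SNRPD1 and SNRPD3, and the SMN complex then loads the Sm ring onto the RNA. The title of the series names PRMT5 methylation of SNRPB, so the transcription of SNRPB and its partner genes under inhibition is a measurement the design contains.

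Promoter sequence is shown for 3 genes on which the results below turn: SNRPB, whose protein carries methylated arginines, SNRPA, called lower in 4 of 5 GSK591 comparisons, and SF3B6, called lower in 5 of 5 MS023 comparisons and higher with 3 h of Dex. The 250 bases before each RefSeq start site are given 5′ to 3′ on the gene's strand, from RefSeq on GRCh38.p14. They lie at chr20:2470790-2471039 on the minus strand for SNRPB, at chr19:40750953-40751202 on the plus strand for SNRPA and at chr2:24076327-24076576 on the minus strand for SF3B6. Capitals mark the letters CCGGAAG, the core bound by ETS factors, or its reverse complement, and CCAAT, the box bound by NF-Y.
SNRPB: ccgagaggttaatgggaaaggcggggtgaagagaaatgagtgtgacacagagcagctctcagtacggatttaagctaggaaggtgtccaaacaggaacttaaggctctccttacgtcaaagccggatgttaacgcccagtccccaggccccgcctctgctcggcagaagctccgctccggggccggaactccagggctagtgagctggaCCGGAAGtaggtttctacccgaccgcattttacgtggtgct
SNRPA: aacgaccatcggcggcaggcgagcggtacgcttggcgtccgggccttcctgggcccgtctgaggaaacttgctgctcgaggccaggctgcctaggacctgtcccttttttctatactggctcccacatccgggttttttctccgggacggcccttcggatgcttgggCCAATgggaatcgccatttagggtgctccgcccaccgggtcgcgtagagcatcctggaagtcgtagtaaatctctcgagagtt
SF3B6: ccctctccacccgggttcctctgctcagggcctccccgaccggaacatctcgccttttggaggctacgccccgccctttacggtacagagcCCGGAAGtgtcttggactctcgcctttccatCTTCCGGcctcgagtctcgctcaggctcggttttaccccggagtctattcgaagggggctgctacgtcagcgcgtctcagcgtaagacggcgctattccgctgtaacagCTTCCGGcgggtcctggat
SNRPB held 1 match to CCGGAAG, SNRPA held 1 match to CCAAT, and SF3B6 held 3 matches to CCGGAAG. Of the 48 genes, 43 had a RefSeq promoter entry, each covering 250 bases before to 50 bases after the start. CCGGAAG on either strand was present in 20 of the 43 (46.5%), against 10.7% of all 27305 promoters and 14.2% of the 15843 promoters of protein-coding genes. CCAAT was present in 17 of the 43 (39.5%), against 35.7% and 36.4%. The E2F sites TTTCCCGC or TTTGGCGC were found in 4 (9.3%), against 2.31% and 3.06%, and the TATA box TATAAA in 1 (2.33%), against 12.0% and 9.63%. The palindromic glucocorticoid response element, looked for after the Dex values were seen, was in 0 of the 43 windows, against 0.388% and 0.246%. A match describes letters in a window and does not show that a factor binds there. The RefSeq start sites differ from the GENCODE 29 gene starts used for all coordinates of genes below. The GENCODE gene begins 64 bases farther upstream for SNRPB, 566 bases for SNRPA and 117 bases for SF3B6. The printed window thus lies wholly inside the GENCODE gene for SNRPA, while for SNRPB and SF3B6 its last 64 and 117 bases do.

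The libraries held between 8441211 and 13069598 counts, of which 58.7% to 78.7% were mitochondrial, and the 48 genes together had between 5052 and 9977 counts in a library. The mitochondrial share was 76.0% and 73.4% in the untreated libraries and lower in all 6 MS023 libraries without Dex, at 62.2% and 65.0%, 64.9% and 66.1%, and 58.7% and 59.6% after 2, 4 and 7 days. With GSK591 it was 71.4% and 68.5%, 69.5% and 70.3%, and 73.7% and 78.7%. Its part in the results below was not tested directly. Leaving out mitochondrial and ribosomal RNA genes moved 0 of the 25 counts of called genes beyond a set margin, given below with the replicate block. Scaling by total counts, which include mitochondrial reads, moved 16 of the 25 beyond that margin. The replicates of a group correlated at r between 0.926 and 0.985 across genes. Levels are given as CPM, a gene's reads scaled to a common library total. Keratin KRT8 ranged from 157 to 456 CPM and AKR1B10, an oxidative stress gene high in A549, from 101 to 209 CPM. CDKN2A, deleted in A549, was at 0 in 20 of 30 libraries with at most 3 counts, while the blood marker PTPRC reached at most 0.437 CPM and the endothelial marker PECAM1 1.15 CPM. Of the fibroblast markers, COL1A1 ranged from 2.41 to 8.24 CPM, while DCN and PDGFRB reached at most 0.579 and 1.86 CPM. The epithelial markers CDH1 and EPCAM were low, at most 6.65 and 6.19 CPM. Library totals were adjusted by the trimmed mean of M-values (TMM), and a gene was called when edgeR's quasi-likelihood test gave a Benjamini-Hochberg adjusted p under 0.05 across the 22919 genes. Log2 fold changes are followed by their standard error (SE).

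The summed level of these genes, as TMM-scaled CPM, was lower with either inhibitor. The 48 genes together stood at 853 and 858 CPM in the untreated libraries. They stood at 763 and 759.8 CPM after 2 days of GSK591, 707 and 733 CPM after 4 days and 652 and 677 CPM after 7 days. With MS023 the sums were 734 and 728 CPM at 2 days, 709 and 698 CPM at 4 days and 690.3 and 692 CPM at 7 days. Every inhibitor library at these times lay below both untreated libraries.

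**Figure D1:**
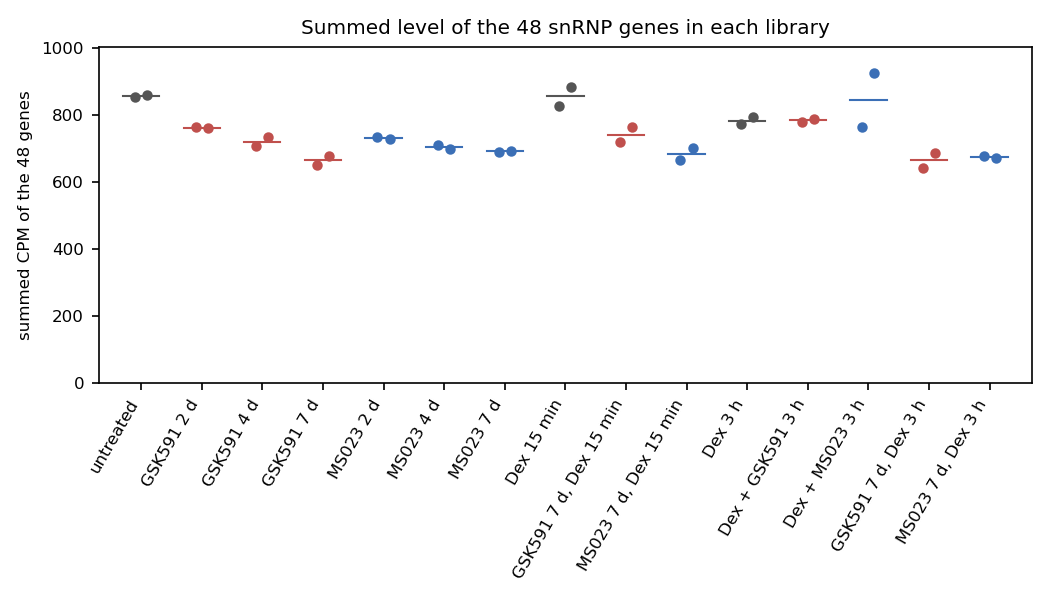
Summed CPM of the 48 genes (y axis) in each library (points), with the mean of each group of 2 libraries (lines), by treatment (x axis). The untreated libraries stand at 853 and 858 CPM and the 7-day GSK591 libraries at 652 and 677 CPM; the pair that received Dex and MS023 together for 3 h spreads from 765 to 926 CPM.

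With GSK591, 6 of 48 genes fell at 2 days, 13 at 4 days and 13 at 7 days, and 0 rose at any of these times. In the same comparisons 2.45%, 8.28% and 6.52% of all tested genes fell, and 5.64%, 17.2% and 13.2% changed in either direction. With MS023, 5 genes fell at 2 days, 12 at 4 days and 12 at 7 days, again with 0 rising, beside 4.21%, 6.37% and 6.51% of all tested genes falling and 10.4%, 14.2% and 13.6% changing. Among protein-coding genes transcribed at least as strongly as the weakest of the 48, 9.71% fell with GSK591 at 7 days and 9.06% with MS023. The median log2 difference of the 48 genes was -0.40 after 7 days of GSK591 and -0.32 after 7 days of MS023, while the median of all tested genes lay within 0.01 of zero. The genes below zero numbered 44 and 40 of 48 at that time, called or not. These counts depend on the scaling. With library totals as the reference in place of TMM, MS023 gave 12, 17 and 32 genes higher and 0 lower at 2, 4 and 7 days. GSK591 then gave 0 higher and 0 lower at 2 days, 2 higher and 1 lower at 4 days, and 0 higher and 2 lower at 7 days.

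Most of these calls were lost when some single library was left out. With each of the 4 libraries left out in turn, the number of GSK591 calls was 0 to 2, 6 to 10 and 5 to 9 by time, and that of MS023 calls 2 to 3, 3 to 6 and 3 to 5. When libraries were scaled by their total counts, which include mitochondrial reads, the median of all genes moved by 0.289, 0.415 and -0.0325 (log2) with GSK591 and by 0.675, 0.741 and 1.02 with MS023 at 2, 4 and 7 days. The median of the 48 genes stood below that of all genes in each case, with differences of -0.394 for GSK591 and -0.321 for MS023 at 7 days. Every fall described here is relative to the bulk of transcribed genes. On the total-count scale, all 12 genes called lower after 7 days of MS023 lay above their untreated level, from 0.0402 (SF3A2) to 0.699 (GEMIN4), with SNRNP70 at 0.463 and SF3B6 at 0.571. So did 8 of the 12 called after 4 days, all but SNRPD1, SNRPD3, SNRPF and U2AF1, and 3 of the 5 called after 2 days, SNRPG, SF3B6 and LSM8. With GSK591 this held for 2 of the 13 genes called at 4 days, SNRPG and GEMIN4, and for 0 of those called at 2 and 7 days.

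**Figure D2:**
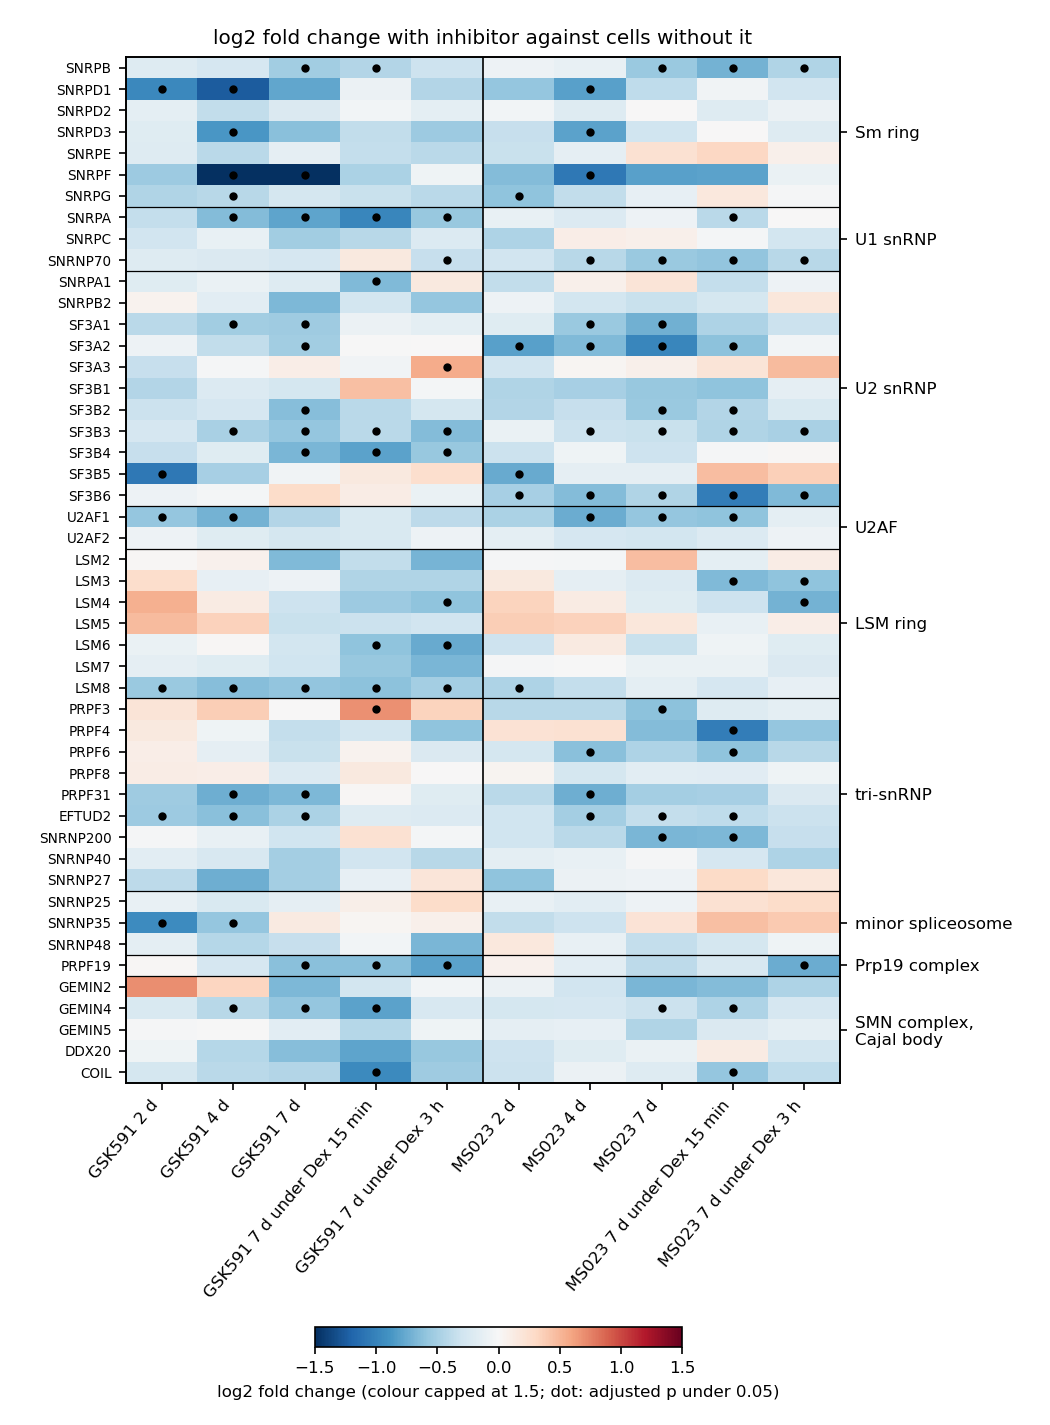
Log2 fold change of each of the 48 genes (rows, grouped by role) with an inhibitor against cells without it (columns: inhibitor alone against untreated, then 7 days of inhibitor before Dex against the same Dex treatment alone); dots mark adjusted p under 0.05. Dots fall on blue cells except for PRPF3 with GSK591 under Dex 15 min and SF3A3 with GSK591 under Dex 3 h.

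The Sm ring, the scaffold common to U1, U2, U4 and U5, was below its untreated level in all 7 genes at 2, 4 and 7 days of GSK591, and 1, 4 and 2 of the 7 fell at these times. Of all 48 genes, 37, 41 and 44 lay below zero in the same comparisons, and 2.45%, 8.28% and 6.52% of all tested genes fell. SNRPB, which encodes the SmB and SmB′ proteins, stood at 17.8 and 19.4 CPM in untreated cells and at 14.9 and 17.7, 15.7 and 15.6, and 11.2 and 14.9 CPM after 2, 4 and 7 days of GSK591. With MS023 it stood at 17.9 and 17.4, 16.1 and 18.5, and 12.5 and 13.0 CPM. At 7 days both inhibitor groups lay wholly below the untreated pair. SNRPB fell by 0.53 (SE 0.159, edgeR adjusted p = 0.0194) with GSK591, a call that was lost without untreated replicate 2 or GSK591 replicate 1. It fell by 0.55 (SE 0.149, adjusted p = 0.00801) with MS023, a call that was lost without untreated replicate 2 or MS023 replicate 1. SNRPB lies at chr20:2461634-2470853 (hg38, minus strand), and 256 of its exonic bases overlap another annotated gene on the same strand.

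SNRPD1, another Sm protein methylated by PRMT5, stood at 8.34 and 8.66 CPM in untreated cells, 4.97 and 3.79 CPM after 2 days of GSK591 and 2.98 and 4.21 CPM after 4 days. Neither GSK591 group overlapped the untreated pair. SNRPD1 fell by 0.97 (SE 0.285, edgeR adjusted p = 0.0362) at 2 days, a call that was lost without any 1 of the 4 libraries, and by 1.24 (SE 0.282, adjusted p = 0.00141) at 4 days, a call that was lost without GSK591 replicate 1. At 7 days it stood at 4.30 and 5.63 CPM, with a difference of -0.78 (95% interval -1.33 to -0.24). After 4 days of MS023 it stood at 5.68 and 3.99 CPM and fell by 0.81 (SE 0.257, adjusted p = 0.0275), a call that was lost without untreated replicate 1, untreated replicate 2 or MS023 replicate 2.

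SNRPD3, likewise an Sm substrate of PRMT5, was called at 4 days with each inhibitor. It stood at 6.23 and 6.25 CPM untreated, 3.07 and 3.71 CPM with GSK591 and 3.62 and 3.49 CPM with MS023. The GSK591 fall was 0.88 (SE 0.235, edgeR adjusted p = 0.00599) and the call was lost without GSK591 replicate 1. The MS023 fall was 0.81 (SE 0.222, adjusted p = 0.00912) and the call was lost without any 1 of the 4 libraries. At 7 days SNRPD3 stood at 4.42 and 3.62 CPM with GSK591 and 4.89 and 5.21 CPM with MS023, below the untreated pair and not called.

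SNRPF, which encodes the F protein of the ring, had the largest called falls of the 48 with an inhibitor alone but few reads, a mean of 25.6 counts a library. It stood at 5.12 and 3.02 CPM in untreated cells, 1.44 and 1.10 CPM after 4 days of GSK591 and 1.28 and 1.47 CPM after 7 days. The untreated values differ from each other by more than the treated ones. SNRPF fell by 1.66 (SE 0.362, edgeR adjusted p = 0.000710) at 4 days, a call that was lost without untreated replicate 1, and by 1.55 (SE 0.376, adjusted p = 0.00307) at 7 days, a call that was lost without untreated replicate 1 or GSK591 replicate 1. After 4 days of MS023 it stood at 2.20 and 1.64 CPM and fell by 1.07 (SE 0.321, adjusted p = 0.0177), a call that was lost without untreated replicate 1 or MS023 replicate 2.

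SNRPG stood at 19.7 and 20.4 CPM in untreated cells and at 13.1 and 13.2 CPM after 2 days of MS023, a fall of 0.61 (SE 0.145, edgeR adjusted p = 0.00348) that held without each library. After 4 days of GSK591 it stood at 16.0 and 14.0 CPM and fell by 0.41 (SE 0.143, adjusted p = 0.0377), a call that was lost without any 1 of the 4 libraries. SNRPD2 and SNRPE, the remaining ring genes, were not called with either inhibitor. SNRPD2 stood at 13.7 and 15.7 CPM untreated, 10.7 and 14.9 CPM after 7 days of GSK591 and 16.9 and 12.8 CPM after 7 days of MS023. Its differences were -0.21 (95% interval -0.57 to 0.14) and 0.01 (95% interval -0.32 to 0.34). SNRPE stood at 13.9 and 15.0 CPM untreated, 13.5 and 12.9 CPM after 7 days of GSK591 and 16.8 and 17.0 CPM after 7 days of MS023. Its MS023 pair lay above the untreated pair, with a difference of 0.22 (95% interval -0.06 to 0.51). Exons of SNRPD3 overlap those of GGT1 on the same strand and of GUCD1, and exons of SNRPF overlap those of CCDC38. Genes described below also share exonic bases with genes on the opposite strand. Among others, these are SF3A2 (398 bases), EFTUD2 (538), PRPF31 (855), SF3A1 (218), GEMIN4 (158) and SNRPA (89). Whether the counting used strand is not given in the sources used here, so reads in these overlaps cannot be told apart.

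Among U1 proteins, SNRPA was called with GSK591 alone and SNRNP70 with MS023 alone, and each was also called with the other inhibitor in 1 comparison under Dex. SNRPA, the U1-A protein that binds a stem loop of U1 RNA, stood at 32.0 and 34.96 CPM in untreated cells. After 2, 4 and 7 days of GSK591 it stood at 22.3 and 29.8, 21.6 and 21.3, and 21.4 and 17.2 CPM. After the same times of MS023 it stood at 29.9 and 32.3, 29.1 and 28.9, and 30.9 and 32.5 CPM. Every GSK591 library was below every untreated library. SNRPA fell by 0.64 (SE 0.142, edgeR adjusted p = 0.000814) at 4 days of GSK591, a call that held without each library, and by 0.79 (SE 0.148, adjusted p = 0.000114) at 7 days, a call that held without each library. With MS023 the 7-day difference was -0.08 (95% interval -0.35 to 0.18). When MS023 came before 15 min of Dex, SNRPA stood at 23.2 and 30.9 CPM against 34.1 and 37.6 CPM with Dex alone. That fall of 0.41 (SE 0.136, adjusted p = 0.0340) was lost without Dex replicate 1, Dex replicate 2 or MS023 replicate 1.

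SNRNP70, the U1-70K protein, stood at 66.0 and 59.6 CPM in untreated cells, 47.3 and 46.6 CPM after 4 days of MS023 and 38.3 and 46.9 CPM after 7 days. No MS023 library at these times overlapped the untreated pair. It fell by 0.42 (SE 0.113, edgeR adjusted p = 0.00750), a call that was lost without untreated replicate 1, MS023 replicate 1 or MS023 replicate 2, and by 0.56 (SE 0.114, adjusted p = 0.000396), a call that was lost without MS023 replicate 1. In GSK591 cells at 7 days it stood at 48.6 and 57.0 CPM, with a difference of -0.25 (95% interval -0.48 to -0.03). When GSK591 came before 3 h of Dex it stood at 39.8 and 44.6 CPM against 54.5 and 52.4 CPM with Dex alone, a fall of 0.34 (SE 0.118, adjusted p = 0.0428) that was lost without any 1 of the 4 libraries. SNRPC, which completes the U1-specific proteins, differed by -0.52 (95% interval -1.09 to 0.06) with GSK591 and 0.08 (95% interval -0.42 to 0.58) with MS023 at 7 days and was not called at any time.

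**Figure D3:**
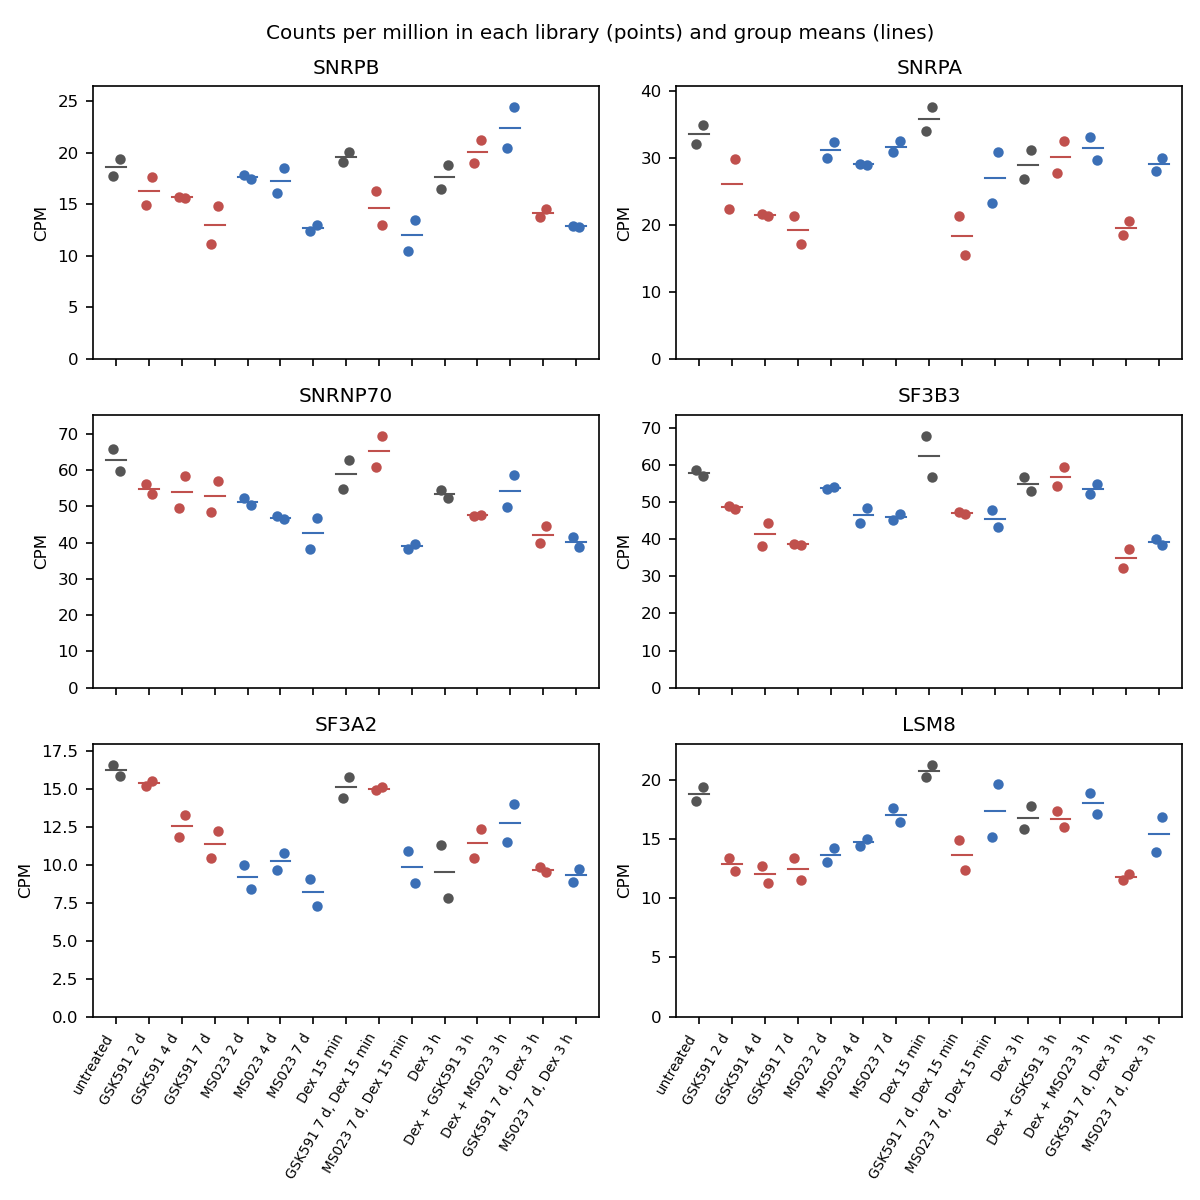
CPM (y axis) of 6 genes in each library (points) with group means (lines), by treatment (x axis); red marks GSK591, blue MS023 and grey cells without an inhibitor. SNRPA is at 17.2 to 21.4 CPM after 7 days of GSK591 and 30.9 to 32.5 CPM after MS023, while SF3A2 is at 7.31 to 9.07 CPM after 7 days of MS023.

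The U2 snRNP, which pairs with the branch point and carries the SF3A and SF3B subcomplexes, had 5 of 11 genes lower at 7 days with each inhibitor. All tested genes fell at 6.52% with GSK591 and 6.51% with MS023 at that time. SF3A1, SF3A2, SF3B2 and SF3B3 were called with both, SF3B4 with GSK591 and SF3B6 with MS023. SF3A2 stood at 16.6 and 15.8 CPM in untreated cells and at 9.97 and 8.40, 9.66 and 10.8, and 9.07 and 7.31 CPM after 2, 4 and 7 days of MS023. No MS023 library overlapped the untreated pair. The falls were 0.82 (SE 0.170, edgeR adjusted p = 0.000757), 0.66 (SE 0.163, adjusted p = 0.00308) and 0.98 (SE 0.167, adjusted p = 2.79e-05). The calls at 2 and 7 days held without each library, and that at 4 days was lost without MS023 replicate 1. After 2, 4 and 7 days of GSK591 it stood at 15.2 and 15.5, 11.8 and 13.2, and 10.5 and 12.2 CPM. The 7-day fall was 0.52 (SE 0.172, adjusted p = 0.0351), and the call was lost without any 1 of the 4 libraries.

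SF3B3, a scaffold of the SF3B complex, stood at 58.5 and 57.0 CPM untreated, 38.1 and 44.4 CPM after 4 days of GSK591, 38.8 and 38.3 CPM after 7 days, and 45.0 and 46.9 CPM after 7 days of MS023. The 7-day GSK591 fall of 0.58 (SE 0.111, edgeR adjusted p = 0.000156) held without each library, and the 7-day MS023 fall of 0.33 (SE 0.106, adjusted p = 0.0301) was lost without any 1 of the 4 libraries. SF3A1, the large subunit of SF3A, stood at 12.6 and 15.1 CPM untreated and 8.43 and 8.40 CPM after 7 days of MS023. It fell by 0.72 (SE 0.169, adjusted p = 0.00216), a call that was lost without untreated replicate 2. SF3B4, whose protein contacts the pre-mRNA near the branch point, stood at 21.2 and 22.8 CPM untreated, 20.6 and 18.4 CPM after 4 days of GSK591 and 13.8 and 13.5 CPM after 7 days. Its 7-day fall of 0.69 (SE 0.147, adjusted p = 0.000777) held without each library.

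SF3B5, a small SF3B subunit, was called at 2 days and not at 4 or 7 days of either inhibitor. It stood at 7.23 and 9.57 CPM untreated, 3.36 and 4.60 CPM after 2 days of GSK591, 4.30 and 5.63 CPM after 2 days of MS023, and 8.02 and 8.17 CPM after 7 days of GSK591. The 2-day GSK591 fall of 1.07 (SE 0.249, edgeR adjusted p = 0.00538) was lost without untreated replicate 2 or GSK591 replicate 1. The 2-day MS023 fall of 0.76 (SE 0.230, adjusted p = 0.0247) was lost without untreated replicate 2 or MS023 replicate 1. SF3B1, the largest SF3B subunit, was not called, and its 7-day GSK591 difference was -0.26 (95% interval -1.44 to 0.92). U2AF1, which reads the AG of the 3′ splice site, was called at 2 and 4 days of GSK591 and at 4 and 7 days of MS023. It stood at 8.24 and 8.12 CPM after 4 days of MS023 against 14.3 and 13.2 CPM untreated. That fall of 0.75 (SE 0.168, adjusted p = 0.00125) held without each library, and the row of its copy U2AF1L5 fell by 0.68 (SE 0.165, edgeR adjusted p = 0.00280). U2AF2, its partner, was not called, and its 7-day differences were -0.26 (95% interval -0.48 to -0.04) with GSK591 and -0.27 (95% interval -0.48 to -0.06) with MS023.

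In the LSM ring, which binds the 3′ end of U6, LSM8 was called and its 6 partners were not at 2, 4 or 7 days of either inhibitor. Under Dex, LSM6 was called lower in 2 GSK591 comparisons, LSM3 in 2 MS023 comparisons and LSM4 in 1 with each inhibitor. LSM8, which distinguishes the nuclear U6 ring from the cytoplasmic ring of mRNA decay, stood at 18.2 and 19.4 CPM untreated and at 13.4 and 12.3, 12.8 and 11.3, and 13.4 and 11.5 CPM after 2, 4 and 7 days of GSK591. All 6 treated libraries were below both untreated ones. The 2-day fall of 0.55 (SE 0.154, edgeR adjusted p = 0.0224) was lost without any 1 of the 4 libraries. The 4-day fall of 0.64 (SE 0.151, adjusted p = 0.00152) held without each library, and the 7-day fall of 0.59 (SE 0.155, adjusted p = 0.00591) was lost without untreated replicate 2 or GSK591 replicate 2. With MS023 it stood at 13.1 and 14.2 CPM at 2 days and at 17.6 and 16.4 CPM at 7 days. The 2-day MS023 fall of 0.46 (SE 0.148, adjusted p = 0.0338) was lost without any 1 of the 4 libraries. The ring's median difference was 0.01 at 4 days of GSK591 and -0.31 at 7 days.

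Of the 9 tri-snRNP genes, 2 fell with GSK591 at 4 and at 7 days, PRPF31 and EFTUD2, and 3 fell with MS023 at each of these times. All tested genes fell at 8.28% and 6.52% with GSK591 and 6.37% and 6.51% with MS023. EFTUD2, the U5 GTPase known as Snu114 in yeast, stood at 27.6 and 26.8 CPM untreated and at 19.2 and 18.0, 17.4 and 17.9, and 19.2 and 19.8 CPM after 2, 4 and 7 days of GSK591. All 6 GSK591 libraries were below both untreated ones. The falls were 0.55 (SE 0.133, edgeR adjusted p = 0.00777), 0.63 (SE 0.130, adjusted p = 0.000373) and 0.48 (SE 0.132, adjusted p = 0.00966). The 4-day call held without each library, and each of the other two was lost without any 1 of the 4 libraries. SNRNP200, the Brr2 helicase that unwinds U4 from U6, stood at 52.6 and 53.1 CPM untreated and 32.2 and 33.3 CPM after 7 days of MS023. Its fall of 0.69 (SE 0.218, adjusted p = 0.0446) was lost without any 1 of the 4 libraries, and its replicates stood at 35.7 and 72.3 CPM when Dex and MS023 were given together. PRPF8, the U5 scaffold at the catalytic centre and the gene with the most counts of the 48, was not called. Its 7-day differences were -0.20 (95% interval -0.47 to 0.07) with GSK591 and -0.15 (95% interval -0.41 to 0.11) with MS023.

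In the minor spliceosome, which removes the rare U12-type introns, SNRNP35 stood at 8.01 and 10.8 CPM untreated, 4.30 and 5.40 CPM after 2 days of GSK591, 6.82 and 5.82 CPM after 4 days and 10.2 and 10.5 CPM after 7 days. The 2-day fall of 0.95 (SE 0.223, edgeR adjusted p = 0.00572) was lost without untreated replicate 2 or GSK591 replicate 1, and the 4-day fall of 0.58 (SE 0.206, adjusted p = 0.0444) was lost without untreated replicate 2, GSK591 replicate 1 or GSK591 replicate 2. Its exons share 2063 bases with RILPL1. PRPF19, the ubiquitin ligase of the Prp19 complex, stood at 13.3 and 11.9 CPM untreated and 8.37 and 7.91 CPM after 7 days of GSK591. That fall of 0.63 (SE 0.195, adjusted p = 0.0234) was lost without any 1 of the 4 libraries.

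Of the 5 SMN complex and Cajal body genes, GEMIN4 fell at 4 and 7 days of GSK591 and at 7 days of MS023. GEMIN4, a component of the SMN complex, stood at 43.3 and 43.3 CPM untreated, 33.2 and 31.5 CPM after 4 days of GSK591, 28.7 and 29.1 CPM after 7 days and 38.2 and 31.0 CPM after 7 days of MS023. None of these groups overlapped the untreated pair. The 4-day GSK591 fall of 0.42 (SE 0.116, edgeR adjusted p = 0.00776) was lost without untreated replicate 1, untreated replicate 2 or GSK591 replicate 2. The 7-day GSK591 fall of 0.58 (SE 0.119, adjusted p = 0.000427) held without each library, and the 7-day MS023 fall of 0.32 (SE 0.113, adjusted p = 0.0481) was lost without untreated replicate 1, untreated replicate 2 or MS023 replicate 2. GEMIN2, GEMIN5, DDX20 and COIL were not called with an inhibitor alone.

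The inhibitor effect was measured again in cells that also received Dex, against Dex alone, in comparisons that share no library with those above. After 7 days of GSK591, 10 genes fell and 1 rose under 15 min of Dex, beside 8.58% of all tested genes falling and 15.3% changing, and 8 fell and 1 rose under 3 h, beside 7.36% and 13.6%. After 7 days of MS023, 15 fell under 15 min of Dex, beside 7.75% and 15.3%, and 7 fell under 3 h, beside 6.11% and 11.5%. Leaving out each library in turn gave 5 to 11 calls under 15 min and 4 to 6 under 3 h with GSK591, and 5 to 12 and 3 to 4 with MS023. With total counts as the reference, MS023 gave 6 genes higher and 0 lower under 15 min and 24 higher and 0 lower under 3 h, and GSK591 gave 14 lower under 15 min and 0 called under 3 h. On that scale 5 of the 15 genes called lower with MS023 under 15 min, and 7 of the 7 under 3 h, lay above Dex alone. The genes lower alone and under both Dex times were SNRPA, SF3B3, SF3B4, LSM8 and PRPF19 with GSK591 and SNRPB, SNRNP70, SF3B3 and SF3B6 with MS023.

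SNRPA stood at 34.1 and 37.6 CPM after 15 min of Dex alone and at 21.3 and 15.5 CPM when GSK591 came before it, a fall of 0.98 (SE 0.146, edgeR adjusted p = 2.38e-06) that held without each library. Under 3 h it stood at 26.8 and 31.1 CPM against 18.5 and 20.6 CPM, a fall of 0.56 (SE 0.148, adjusted p = 0.00653) that was lost without Dex replicate 2 or GSK591 replicate 1. GEMIN4 stood at 46.3 and 46.7 CPM against 29.8 and 24.1 CPM under 15 min of Dex, a fall of 0.80 (SE 0.119, adjusted p = 2.01e-06) that held without each library. Neither gene's groups overlapped. Under 3 h GEMIN4 stood at 41.9 and 38.5 CPM against 34.2 and 34.2 CPM, a difference of -0.23 (95% interval -0.47 to -0.0036). SNRPB stood at 19.2 and 20.1 CPM after 15 min of Dex and 10.5 and 13.5 CPM with MS023 before it, a fall of 0.71 (SE 0.150, adjusted p = 0.000588) that was lost without MS023 replicate 1. SF3B3, the SF3B scaffold, stood at 56.9 and 53.0 CPM under 3 h of Dex alone, 32.3 and 37.5 CPM after GSK591 and 40.0 and 38.3 CPM after MS023. The GSK591 fall of 0.66 (SE 0.112, adjusted p = 2.39e-05) held without each library, and the MS023 fall of 0.49 (SE 0.108, adjusted p = 0.00139) held without each library.

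PRPF3, a U4/U6 protein, went the other way with GSK591. With MS023 it lay below zero in all 5 comparisons and was called lower in 1. It stood at 13.7 and 16.0 CPM after 15 min of Dex and at 19.3 and 28.0 CPM with GSK591 before it, a rise of 0.69 (SE 0.187, edgeR adjusted p = 0.00982) that was lost without Dex replicate 1 or GSK591 replicate 2. SF3A3, the third SF3A subunit, stood at 9.25 and 8.91 CPM after 3 h of Dex and 12.1 and 14.6 CPM with GSK591 before it, a rise of 0.55 (SE 0.179, edgeR adjusted p = 0.0298) that was lost without Dex replicate 1, Dex replicate 2 or GSK591 replicate 2.

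**Figure D4:**
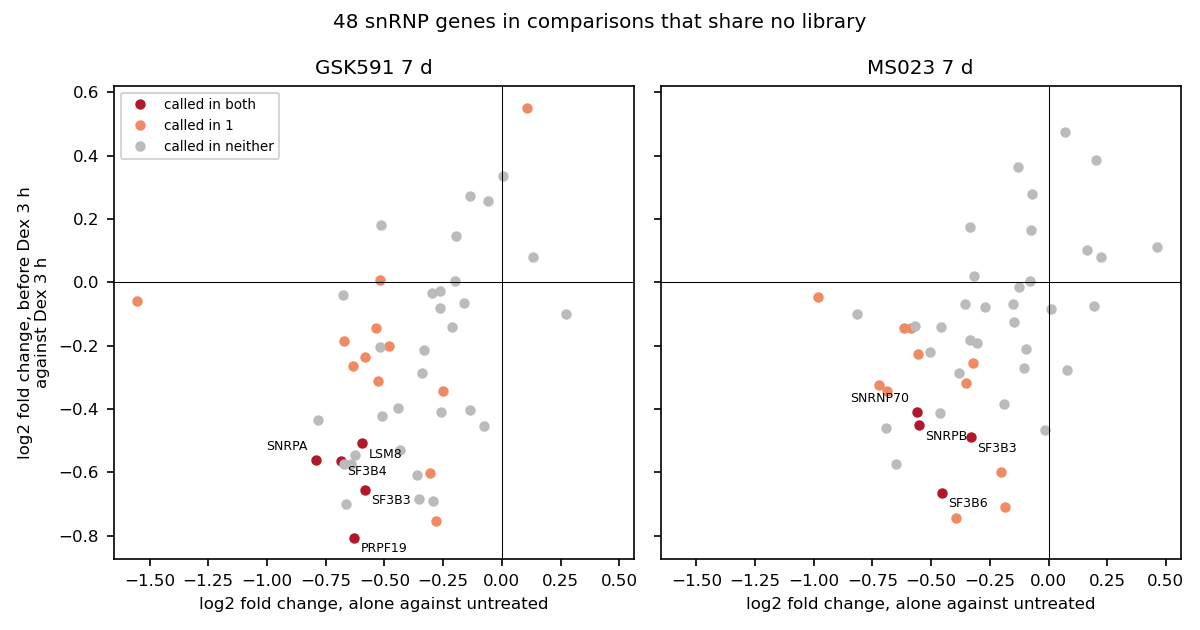
Log2 fold change of each of the 48 genes after 7 days of inhibitor alone (x axis) against 7 days of inhibitor before 3 h of Dex, relative to Dex alone (y axis), for GSK591 (left) and MS023 (right). SNRPA, SF3B3, SF3B4, LSM8 and PRPF19 are called on both axes with GSK591, and SNRPB, SNRNP70, SF3B3 and SF3B6 with MS023; Pearson's r over the 48 genes, which share library depth within an axis, is 0.38 and 0.433.

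Over the 10 comparisons with an inhibitor, 30 of the 48 genes (62.5%) were lower at least 1 time, 2 (4.17%) were higher at least 1 time and 17 (35.4%) were never called. Of all tested genes, 25.7% were lower at least 1 time, 27.2% were higher at least 1 time and 51.5% were never called. Among protein-coding genes transcribed at least as strongly as the weakest of the 48, these shares were 33.9%, 30% and 41.9%. SF3B3 was lower in 8 of the 10, EFTUD2 and LSM8 in 6, and GEMIN4, SF3A2, SF3B6, SNRNP70, SNRPA, SNRPB and U2AF1 in 5. The never-called genes included SNRPD2, SNRPE, SNRPC, SF3B1, U2AF2, LSM2, LSM5, LSM7 and PRPF8. LSM8 was called in all 5 GSK591 comparisons and SF3B6 in all 5 MS023 comparisons.

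Direct comparison of the inhibitors called few of the 48 genes: 1 at 2 days beside 2.69% of all tested genes, 2 at 4 days beside 6.03% and 5 at 7 days beside 9.38%. Of these 8, 3 were lower with GSK591, all at 7 days. With total counts as the reference, 0 genes were higher with GSK591 and 1, 1 and 44 were lower at 2, 4 and 7 days. SNRPA stood at 21.4 and 17.2 CPM after 7 days of GSK591 and 30.9 and 32.5 CPM after MS023, lower with GSK591 by 0.71 (SE 0.145, edgeR adjusted p = 0.000519), a call that was lost without GSK591 replicate 2. SF3B6, a small SF3B subunit that contacts the branch point region, stood at 20.2 and 19.7 CPM after 7 days of GSK591 and 11.5 and 12.6 CPM after MS023, higher with GSK591 by 0.73 (SE 0.147, adjusted p = 0.000468), which held without each library but went to -0.32 with total counts as the reference. At 4 days it was higher by 0.63 (SE 0.148, edgeR adjusted p = 0.00446), a call that was lost without GSK591 replicate 2 or MS023 replicate 2. SNRNP70, called with MS023, and LSM8, called with GSK591, did not pass the test of the difference at 7 days. For SNRNP70 at 7 days that difference was 0.31 (95% interval 0.08 to 0.53, edgeR adjusted p = 0.0852), and for LSM8 it was -0.45 (95% interval -0.74 to -0.15). For SNRPB, called with both, it was 0.03 (95% interval -0.28 to 0.34).

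Between successive times few genes were called. From 2 to 4 days edgeR called 0 of 48 genes with either inhibitor, beside 3.39% of all tested genes with GSK591 and 4.91% with MS023, and 5 and 8 of the 48 had an unadjusted p under 0.05. DESeq2 called 0 in both. From 4 to 7 days of GSK591, 2 fell and 1 rose beside 8.29% changing, and from 4 to 7 days of MS023, 3 fell beside 9.04%. With total counts as the reference, 13 fell and 0 rose with GSK591 and 0 were called with MS023. With GSK591, LSM5 stood at 16.7 and 18.4 CPM at 4 days and 12.8 and 8.84 CPM at 7 days, a fall of 0.69 (SE 0.162, edgeR adjusted p = 0.00414) that was lost without GSK591 4-day replicate 2 or GSK591 7-day replicate 2. With MS023, SNRPB fell by 0.44 (SE 0.144, adjusted p = 0.0419) between 4 and 7 days, a call that was lost without any 1 of the 4 libraries.

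With Dex itself, few of the 48 genes were called in the counts. After 15 min, 0 were called beside 1.26% of all tested genes, and 1 had an unadjusted p under 0.05 in edgeR, SNRPA1. DESeq2 also called 0. After 3 h, 1 rose and 2 fell beside 10.5% of all tested genes. Called or not, 39 of 48 lay below zero at 3 h, with a median log2 difference of -0.16. The summed level was 771 and 793 CPM after 3 h of Dex, against 853 and 858 CPM untreated. With total counts as the reference, 1 rose and 0 fell. SF3B6 stood at 18.2 and 14.9 CPM untreated, 17.6 and 17.3 CPM after 15 min of Dex and 46.5 and 44.3 CPM after 3 h. It rose by 1.46 (SE 0.138, edgeR adjusted p = 1.14e-11), or 2.74-fold, at 3 h, and this held without each library. SF3A2 stood at 16.6 and 15.8 CPM untreated and 11.3 and 7.81 CPM after 3 h, a fall of 0.75 (SE 0.173, adjusted p = 0.00177) that was lost without Dex replicate 2. SF3B5 stood at 7.23 and 9.57 CPM untreated and 4.36 and 3.79 CPM after 3 h, a fall of 1.04 (SE 0.244, adjusted p = 0.00211) that was lost without untreated replicate 2.

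SF3B6 also rose with 3 h of Dex after 7 days of either inhibitor. After GSK591 it stood at 20.2 and 19.7 CPM without and 44.8 and 39.9 CPM with Dex, a rise of 1.08 (SE 0.138, edgeR adjusted p = 3.93e-08) that held without each library. After MS023 it stood at 11.5 and 12.6 CPM without and 28.0 and 29.2 CPM with Dex, a rise of 1.25 (SE 0.137, adjusted p = 6.54e-10) that held without each library. In these comparisons 3 of 48 genes were called after GSK591 beside 9.85% of all tested genes, and 1 after MS023 beside 11.1%. Interaction terms called 0 of 48 genes, beside 0.223% of all tested genes for each inhibitor, with 3 genes for GSK591 and 1 for MS023 at an unadjusted p under 0.05 in edgeR and 0 calls by DESeq2. For SF3B6 they were -0.37 (95% interval -0.75 to 0.0098) and -0.21 (95% interval -0.59 to 0.17). The 1 gene for MS023 was SF3A2, at 0.93 (95% interval 0.46 to 1.41, edgeR adjusted p = 0.0715). Under 3 h of Dex, SF3A2 averaged 9.30 CPM after MS023 and 9.54 CPM with Dex alone.

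On the TMM scale SF3B6 fell with MS023 both without and with Dex. The MS023 libraries stood at 11.6 and 11.7, 11.7 and 9.33, and 11.5 and 12.6 CPM at 2, 4 and 7 days, all below both untreated libraries. The 2-day fall of 0.50 (SE 0.153, edgeR adjusted p = 0.0256) was lost without untreated replicate 1, MS023 replicate 1 or MS023 replicate 2. The 4-day fall of 0.65 (SE 0.149, adjusted p = 0.00158) was lost without untreated replicate 1 or MS023 replicate 2, and the 7-day fall of 0.45 (SE 0.147, adjusted p = 0.0307) was lost without untreated replicate 1, MS023 replicate 1 or MS023 replicate 2. Under 15 min of Dex the level after MS023 was 9.57 and 7.41 CPM against 17.6 and 17.3 CPM, a fall of 1.03 (SE 0.153, adjusted p = 2.48e-06) that held without each library. Under 3 h the fall of 0.66 (SE 0.127, adjusted p = 0.000212) held without each library.

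SF3B6 lies at chr2:24067584-24076443 (hg38, minus strand) with no exon overlapping another gene. The start site of FAM228B lies 83 bases from its GENCODE start and 200 bases from its RefSeq start, on the opposite strand and inside the printed window, and 989 bases separate SF3B6 from TP53I3, which lies upstream on the same strand. These neighbours, named after the values were seen, also moved. TP53I3 stood at 94.2 and 97.4 CPM untreated, 134 and 141 CPM after 15 min of Dex and 166 and 154 CPM after 3 h. It rose by 0.52 (SE 0.105, edgeR adjusted p = 0.00173) and 0.74 (SE 0.105, edgeR adjusted p = 4.50e-07), and at 15 min SF3B6 differed by 0.08 (95% interval -0.21 to 0.36). FAM228B stood at 16.6 and 16.8 CPM untreated and 37.6 and 24.4 CPM after 3 h of Dex, a rise of 0.90 (SE 0.185, edgeR adjusted p = 0.00112). After 7 days of MS023, TP53I3 fell by 0.34 (SE 0.105, edgeR adjusted p = 0.0223) and FAM228B differed by -0.27 (SE 0.190, edgeR adjusted p = 0.389). Under 15 min of Dex, MS023 against Dex alone gave -0.35 (SE 0.103, edgeR adjusted p = 0.0149) for TP53I3 and -0.90 (SE 0.189, edgeR adjusted p = 0.00136) for FAM228B. Under 3 h of Dex the values were -0.31 (SE 0.103, edgeR adjusted p = 0.0434) and -0.29 (SE 0.172, edgeR adjusted p = 0.303). The part of these neighbours in the SF3B6 counts was not tested.

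**Figure D5:**
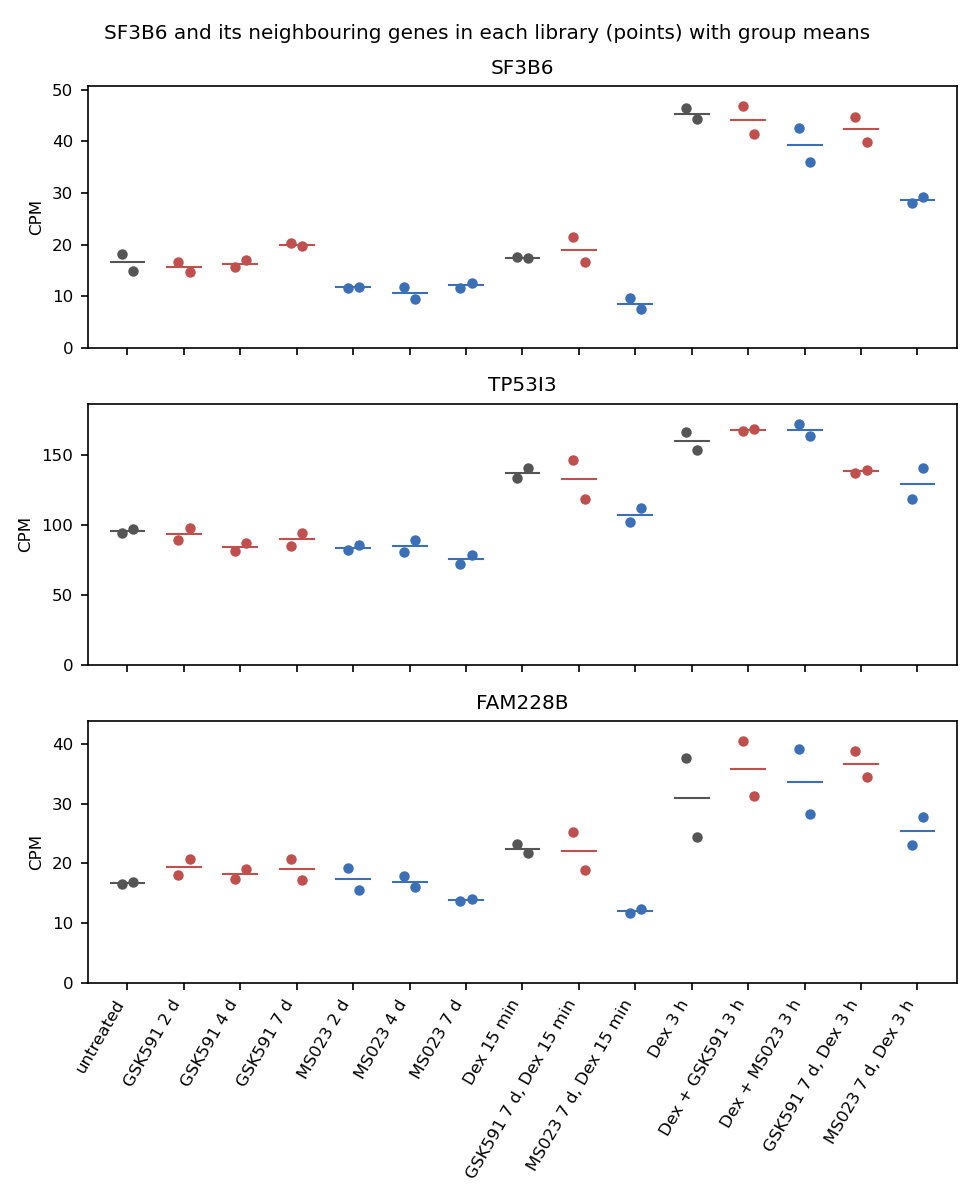
CPM (y axis) of SF3B6 and its neighbours TP53I3 and FAM228B in each library (points) with group means (lines), by treatment (x axis). SF3B6 is at 46.5 and 44.3 CPM after 3 h of Dex against 18.2 and 14.9 CPM untreated, and at 28.0 and 29.2 CPM when 7 days of MS023 precede Dex.

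When an inhibitor was given for the same 3 h as Dex, edgeR called none of the 48 genes. With GSK591 and Dex together against Dex alone, 0 genes were called beside 0% of all tested genes, and 1, SNRPG, had an unadjusted p under 0.05 in edgeR. With MS023 and Dex, 0 were called beside 0.196%, and 9 had an unadjusted p under 0.05. DESeq2 called 0 in each. The 2 libraries of the MS023 and Dex group stand apart, with summed levels of 765 and 926 CPM, and 7 genes were called when its replicate 1 was left out. SF3B6 stood at 46.9 and 41.4 CPM with GSK591 and Dex and 42.5 and 36.1 CPM with MS023 and Dex, beside 46.5 and 44.3 CPM with Dex alone.

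Further lists hold other genes of the same machinery. Of 58 other spliceosome genes, 1, 2 and 5 fell at 2, 4 and 7 days of GSK591 and 4, 4 and 7 with MS023, and 0 rose. All tested genes fell at 2.45%, 8.28% and 6.52% with GSK591 and 4.21%, 6.37% and 6.51% with MS023, the background for these lists too. Their medians were -0.20 and -0.23 at 7 days, with DDX46 (-1.59 with MS023) and DHX38 (-0.74 with GSK591, -0.98 with MS023), both RNA helicases of the spliceosome, among those called. Of 26 other snRNP assembly genes, 1, 3 and 3 fell and 1, 2 and 0 rose at 2, 4 and 7 days of GSK591, and 2, 3 and 3 fell and 0, 1 and 0 rose with MS023. COPRS, a partner of PRMT5, rose by 1.14 at 2 days of GSK591, and LSM10, a protein of the U7 snRNP, rose by 0.98 at 4 days of GSK591 and 0.84 at 4 days of MS023. KPNB1, the importin beta that carries snRNPs into the nucleus, and NOLC1, a nucleolar and Cajal body protein, fell with both at 7 days. PRMT5 itself, the target of GSK591, differed by -0.02 (SE 0.199, edgeR adjusted p = 0.970) at 7 days of GSK591 and fell by 0.74 (SE 0.211, edgeR adjusted p = 0.0145) after 3 h of Dex.

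Cell cycle genes also fell with the inhibitors in the same libraries. Of 30 S phase genes, 7, 22 and 23 fell at 2, 4 and 7 days of GSK591 and 6, 14 and 17 with MS023, with 7-day medians of -1.21 and -0.67. Of 25 mitosis genes, 1, 14 and 19 fell with GSK591 and 1, 4 and 7 with MS023, with 7-day medians of -1.61 and -0.70. Their part in the lower transcription of the snRNP genes was not tested.

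The authors' deposited tables of fold changes against untreated cells hold gene means that do not follow the deposited counts. How the reads behind them were counted is not given in the sources used here. Over 9945 protein-coding genes the authors' mean was 0.578 times the count mean (median) in the eighth of genes with least intron and 5.25 times in the eighth with most, and for 39 of the snRNP genes it ranged from 0.2 (SNRNP25) to 3.95 (PRPF6). The authors' deposited tables list 42 of the 48 genes and have 4, 19 and 17 of them lower at 2, 4 and 7 days of GSK591, beside 9.16%, 14% and 13% of all genes with an adjusted p. For MS023 they have 4, 12 and 16 lower, beside 9.26%, 12.3% and 12.3%. They also have 1 gene higher, LSM5, at 2 days of GSK591 and at 2 and 7 days of MS023. In these 3 comparisons 14.7%, 17.7% and 22% of all genes with an adjusted p changed in either direction. At 4 days of either inhibitor and 7 days of GSK591 they have 0 higher. Of the genes lower in the counts with GSK591, 2 of the 6 listed at 2 days, 10 of the 13 at 4 days and 8 of the 12 at 7 days were also lower in the authors' deposited tables. With MS023, 1 of the 5 listed at 2 days, 9 of the 12 at 4 days and 9 of the 11 at 7 days were also lower in the authors' deposited tables. The 2-day calls that the authors' deposited tables also hold are EFTUD2 and SNRNP35 with GSK591 and SF3A2 with MS023, so those of SNRPD1, SF3B5, U2AF1 and LSM8 at 2 days of GSK591 are not among them. After 3 h of Dex the authors' deposited table has 8 of the 42 listed genes lower and 2 higher, SF3B6 and LSM2. Beside these, 11% of all genes with an adjusted p were lower and 21.9% changed in either direction.

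For SNRPA the authors' deposited table gives -0.61 and -0.73 after 4 and 7 days of GSK591 (adjusted p = 9.11e-09 and 1.71e-11), and also -0.39 after 7 days of MS023 (adjusted p = 0.000193). For SNRPB the authors' deposited table gives -1.04 and -0.73 at 4 and 7 days of GSK591 (adjusted p = 2.25e-13 and 2.02e-07) and -0.55 at 7 days of MS023 (adjusted p = 3.45e-05). In the counts SNRPA was not called with MS023 alone, and SNRPB was not called at 4 days of GSK591. SNRNP70 is -0.54 after 7 days of MS023 and -0.40 after GSK591 in the authors' deposited table (adjusted p = 9.87e-09 and 8.49e-05). SF3A2 is -0.79 after 7 days of MS023 in the authors' deposited table (adjusted p = 2.70e-10).

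LSM8 and SF3B6 also differ between the sources. The authors' deposited table gives LSM8 as -0.04, -0.07 and -0.18 after 2, 4 and 7 days of GSK591 (adjusted p = 0.835, 0.756 and 0.372), against the called falls in the counts. For SF3B6 the authors' deposited table gives -0.27, -0.62 and -0.08 after 2, 4 and 7 days of MS023 (adjusted p = 0.126, 0.000310 and 0.708). For the same gene after 4 days of GSK591 it is -0.95 in the authors' deposited table (adjusted p = 5.95e-07), where the counts gave -0.03 (95% interval -0.31 to 0.26). The Dex 3 h value of SF3B6 is 1.06 in the authors' deposited table (adjusted p = 3.17e-12). Why the sources differ for these genes was not tested.

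In untreated cells the highest levels per kilobase of exon were those of SNRPB at 14.6 ± 0.913 CPM per kb (SD, n = 2), SNRPA at 14.2 ± 0.877, SF3B6 at 13.8 ± 1.97 and SNRNP70 at 13.4 ± 0.952. These neighbours in the order do not differ beyond their spread. DDX20 and SNRNP48 were lowest, at 0.659 and 0.621 CPM per kb. Reads of 64 processed pseudogenes named after these genes averaged 74.6 counts a library in all, against 7713 for the 48 genes.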

How the data were processed

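PRO-seq of A549 cells gave 30 libraries in 15 groups of 2. The authors deposited a table of read counts per gene, made with featureCounts 2.0.1 on hg38 per the submitters' processing notes. The aligner, the annotation and the use of strand are not given in the sources used here. The authors also deposited 14 tables with a mean normalized signal, a log2 fold change, its error and a p-value per gene, per the file headers; these were copied and their calls counted. Gene coordinates are from GENCODE 29.

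Counts were fitted with edgeR 4.0.16 (R 4.3.3, limma 3.58.1): filterByExpr (minimum count 10, total 15), TMM, 1 robust quasi-likelihood fit over all 15 groups, 15 residual degrees of freedom, 25 comparisons, Benjamini-Hochberg over 22919 genes, threshold 0.05. CPM uses the TMM-scaled total, mitochondrial reads included. The common biological coefficient of variation was 10.6%. The fit was tested on simulated data.

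The 48 genes and all lists were chosen with earlier results of these data known. Values per library are given for the Sm ring and for the 3 largest called changes in each direction with an inhibitor alone; members named beyond these were chosen after their values were seen. Alternatives were DESeq2 1.42.0, its size factors, total-count scaling, no filter, the compared groups alone, a replicate block, and leaving out each library. A further one, leaving out mitochondrial and ribosomal RNA genes, was added after seeing the data.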

Additional observations from a re-analysis of the deposited data

Results flagged for a closer look

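Between the 2 inhibitors, 8 differences among the 48 genes passed the test of the difference itself (edgeR's quasi-likelihood test with Benjamini-Hochberg adjustment). SF3A2 was higher with GSK591 than with MS023 at 2 days by 0.743 on the log2 scale (adjusted p = 0.00778). SF3B6 was higher with GSK591 by 0.625 at 4 days (adjusted p = 0.00446) and by 0.726 at 7 days (adjusted p = 0.000468). PRPF3, a U4/U6 protein, was higher with GSK591 by 0.785 at 4 days (adjusted p = 0.00583) and by 0.621 at 7 days (adjusted p = 0.0402), with 14.4 and 18.2 CPM against 10.2 and 10.9 CPM at 7 days. The untreated mean of PRPF3 was 16.2 CPM, beside 7-day means of 16.3 CPM with GSK591 and 10.6 CPM with MS023. SNRPA was lower with GSK591 at 7 days, with a log2 difference of -0.712 (adjusted p = 0.000519). LSM2 and LSM5, of the U6 ring, were also lower with GSK591 at 7 days, by -1.13 (adjusted p = 0.0482) and -0.504 (adjusted p = 0.0352). LSM2 averaged 30.2 counts a library. Of the 8, the SF3B6 difference at 7 days was the 1 that held without each library. Groups of 2 libraries are too small for a test of outlying libraries.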

How the results depend on the processing

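The counts of calls among the 48 genes moved with several settings. Scaling by total counts gave, at 2, 4 and 7 days, 0, 3 (1 lower, 2 higher) and 2 calls (lower) with GSK591, 12, 17 and 32 with MS023 (all higher, where the main counts were all lower), and 1, 1 and 44 between inhibitors (all lower with GSK591). It gave 0 for GSK591 under Dex 3 h, 6 and 24 for MS023 under Dex 15 min and 3 h (all higher), 13 (lower) and 0 from 4 to 7 days of GSK591 and MS023, and 1 each (higher) for Dex 15 min, Dex 3 h, Dex with MS023 and Dex after GSK591. Under it SNRPG with GSK591 at 4 days went to 0.00824 and with MS023 at 2 days to 0.0661, and with MS023 at 7 days SF3A2 went to 0.0402, SF3A1 to 0.29, SNRNP200 to 0.33 and SNRPB to 0.46. Between inhibitors at 7 days SF3B6 went to -0.32 and PRPF3 to -0.44. The medians went to 0.10 and 0.17 with GSK591 at 2 and 4 days, 0.38, 0.52 and 0.70 with MS023 at 2, 4 and 7 days, and 0.29 and 0.67 under Dex 15 min and 3 h. That setting shifts all genes, as given in the report.

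DESeq2 gave 3 and 7 calls with GSK591 at 2 and 7 days, 2, 6 and 5 with MS023 at 2, 4 and 7 days, 2 between inhibitors at 7 days, 5 for GSK591 under Dex 3 h, 7 and 4 for MS023 under Dex 15 min and 3 h, 1 and 0 from 4 to 7 days of GSK591 and MS023, and 1 for Dex after GSK591. Fitting the compared groups alone gave 10 with GSK591 at 2 days, 13 and 19 with MS023 at 2 and 4 days, 2, 6 and 8 between inhibitors, 6 from 4 to 7 days of each inhibitor, 4 from 2 to 4 days of MS023 and 1 for Dex 15 min. Without a filter there were 2 between inhibitors at 2 days, 1 from 4 to 7 days of MS023 and 2 for Dex with MS023. DESeq2 size factors gave 1 from 2 to 4 days of MS023 and 1 for Dex 15 min. Leaving out mitochondrial and ribosomal RNA genes moved 0 of the 25 counts beyond the margin given next for the replicate block. Smaller changes are not listed.

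The replicate block gave 1 call from 2 to 4 days of MS023 and 1 for Dex 15 min, against 0 and 0, and the other 23 counts were within 1.5 times. The labels give the numbers no shared batch, and deviations of same-numbered libraries correlated at -0.457 to 0.501 over 105 pairs of groups (median 0.0225), so the numbers were not taken as pairs.

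Leaving out 1 library at a time gave 0 to 1, 0 to 1 and 1 to 4 calls between inhibitors by time, 0 to 1 from 4 to 7 days of each inhibitor, 2 to 3 for Dex 3 h, 0 to 7 for Dex with MS023, 1 to 2 for Dex after GSK591 and 0 to 1 for the interaction with MS023 (1 without Dex 3 h replicate 1). By time, the ranges were 0 to 2, 6 to 10 and 5 to 9 for GSK591 alone, 2 to 3, 3 to 6 and 3 to 5 for MS023 alone, 5 to 11 and 4 to 6 for GSK591 under Dex, and 5 to 12 and 3 to 4 for MS023 under Dex. An arm left with 1 library is assumed to vary like the other groups. Depth limits the small genes: SNRNP27 averaged 18.4 counts a library and SNRPF 25.6.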
